A study of Rattus norvegicus with 9 samples.

Results

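The genes of fibrillar collagen and of the fibrotic matrix were followed in rat gastrocnemius, the calf muscle served by the sciatic nerve. They were 10 genes taken by symbol: Col1a1, Col1a2, Col3a1, Col5a1, Col5a2, Fn1, Sparc, Postn, Lox and Tgfb1. Each was found by matching the NCBI gene ID of the files to its RefSeq symbol, and all 10 of the 10 were among the 13752 gene IDs measured. After a filter on low counts 10129 genes were tested, 9 of these 10 among them; Lox was below the filter.

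Messenger RNA was sequenced from 9 libraries in 3 groups of 3, all from male rats aged 8 weeks. SHAM had a sham operation and DN had a sciatic nerve injury, and both were anaesthetised and given the electrodes for 10 min with the current off. DN-SM had the same nerve injury and was stimulated through skin electrodes every day for 4 weeks from the day of surgery (25 V, 1 mA, square pulses of 300 ms at 2 Hz). The labels name no strain, no kind of nerve injury, no day of collection for SHAM and DN, and no pooling, and they do not state that each library is a separate animal, so p-values here measure the spread between these libraries. Markers of skeletal muscle fibres summed to 146326 to 181854 FPKM per library (fragments per kilobase of transcript, scaled to library size), which matched the labelled tissue.

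Fibrillar collagens are long triple helices that fibroblasts secrete and assemble into the fibres of the endomysium, perimysium and tendon. Type I collagen is built from the chains of Col1a1 and Col1a2, type III from Col3a1, and type V, which sits inside the type I fibril and limits its width, from Col5a1 and Col5a2. Fibronectin, osteonectin and periostin (Fn1, Sparc, Postn) help the fibrils assemble, lysyl oxidase (Lox) crosslinks them, and transforming growth factor beta 1 (Tgfb1) is the cytokine best known for raising their transcription. Muscle that has lost its nerve is known to gather more of this matrix between its fibres over time.

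The sequence before the start of a gene is where such signals reach the collagen genes, and it is shown for 4 genes of differing function: a type I collagen chain, the most abundant gene of the set, periostin and the cytokine. Promoter sequences of RefSeq (GRCr8) were found for 6 of the 10 genes: Col1a2, Col5a1, Col5a2, Sparc, Postn and Tgfb1. The others were Col1a1, Col3a1, Fn1 and Lox. The 250 bases before each start are given 5′ to 3′ on the strand of the gene, with letters in capitals where 1 of 5 motifs was found on either strand: the TATA box TATAAA, the CCAAT box CCAAT, the GC box GGGCGG, the SMAD box CAGAC and the AP-1 site TGANTCA. No motif overlapped another here. The windows were chr4:33518307-33518556 (+) for Col1a2, chr10:40038817-40039066 (-) for Sparc, chr2:140677811-140678060 (+) for Postn and chr1:90324062-90324311 (+) for Tgfb1.
Col1a2: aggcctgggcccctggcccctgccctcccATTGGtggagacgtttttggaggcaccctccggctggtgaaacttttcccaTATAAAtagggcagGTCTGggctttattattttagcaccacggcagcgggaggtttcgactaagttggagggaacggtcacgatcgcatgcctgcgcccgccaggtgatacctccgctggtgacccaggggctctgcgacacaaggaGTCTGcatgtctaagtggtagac
Sparc: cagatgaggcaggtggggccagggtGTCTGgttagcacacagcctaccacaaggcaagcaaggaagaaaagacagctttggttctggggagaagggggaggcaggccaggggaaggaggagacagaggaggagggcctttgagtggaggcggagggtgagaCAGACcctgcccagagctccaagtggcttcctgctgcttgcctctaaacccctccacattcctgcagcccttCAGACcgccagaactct
Postn: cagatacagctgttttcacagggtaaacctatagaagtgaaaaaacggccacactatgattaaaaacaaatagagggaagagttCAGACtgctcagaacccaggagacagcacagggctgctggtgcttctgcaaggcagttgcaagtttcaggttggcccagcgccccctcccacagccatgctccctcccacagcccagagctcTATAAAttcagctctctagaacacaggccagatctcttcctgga
Tgfb1: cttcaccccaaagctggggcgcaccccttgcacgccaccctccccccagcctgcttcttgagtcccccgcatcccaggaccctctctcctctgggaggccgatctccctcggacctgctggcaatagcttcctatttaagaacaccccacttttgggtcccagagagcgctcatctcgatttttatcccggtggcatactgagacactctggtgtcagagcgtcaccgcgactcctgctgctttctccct
Positions were counted from the start annotated by RefSeq, and whether transcription begins there was not tested. Col1a2 held a CCAAT match at position -221 from that start, TATAAA at -170 and 2 matches to the SMAD box. Sparc held 3 SMAD box matches and no TATAAA, Postn held TATAAA at -44 and a SMAD box match at -166, and Tgfb1 held none of the 5 motifs in this window. Over all 27457 promoters of that table, TATAAA was in 13.1%, CCAAT in 34.3%, the GC box in 32.4%, the SMAD box in 42.8% and the AP-1 site in 6.36%. Of the promoters not printed, Col5a1 held 1 GC box match, at -127, and Col5a2 held 1 SMAD box match, at -103. GC content was 58.4% for Col1a2 and 50.8% for Postn, with a median of 52.0% over the table. These matches describe the letters and are not evidence of binding.

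Libraries held 7926445 to 8893843 expected counts. SHAM replicate 2 stood apart: on the first principal component (30% of the variance) it lay at -40.65, against -13.6 and 10.09 for SHAM replicates 1 and 3, 23.02 to 25.38 for DN and -11.6 to -8.54 for DN-SM. It was the lowest of the 9 libraries in 7 of the 10 matrix genes, and SHAM replicate 3 was the highest in 4. The coefficient of variation within SHAM was 19.3% to 54.5% over the 10 genes and exceeded that within DN for 9 of the 10. Fold changes of the members against SHAM are therefore given with and without SHAM replicate 2, Lox apart. In these bulk samples fewer cells of a type and less RNA per cell cannot be told apart.

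The 10 genes together summed to 1185, 644.7 and 1335 FPKM in SHAM replicates 1 to 3. The sum was 1085, 1339 and 1309 FPKM in DN and 924.2, 912.1 and 773.9 in DN-SM. DN-SM was thus below DN in every library, and only SHAM replicate 2 lay below DN-SM. This was 0.104% to 0.21% of all FPKM in a library. The 5 fibrillar collagens made up 601.5 ± 268.5 FPKM of it in SHAM, and 578.2 ± 104.2 in DN against 358.4 ± 69.8 in DN-SM (SD, n = 3).

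Sparc was the most abundant of the 10 per transcript length in each of the 9 libraries, followed by Col1a1, Col3a1 and Col1a2. The order of Col3a1 and Col1a2 differed between SHAM libraries, and that of Col1a1 and Col3a1 between DN-SM libraries. Fn1 and Tgfb1 formed a middle level and did not keep 1 order within SHAM or within DN, whereas Tgfb1 was above Fn1 in each DN-SM library. Col5a1, Col5a2 and Postn were lower still. In DN-SM Postn was not separated from Col5a1 or from Col5a2, and in SHAM Col5a1 was not separated from Col5a2. Lox was the lowest in each library.

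**Figure D1:**
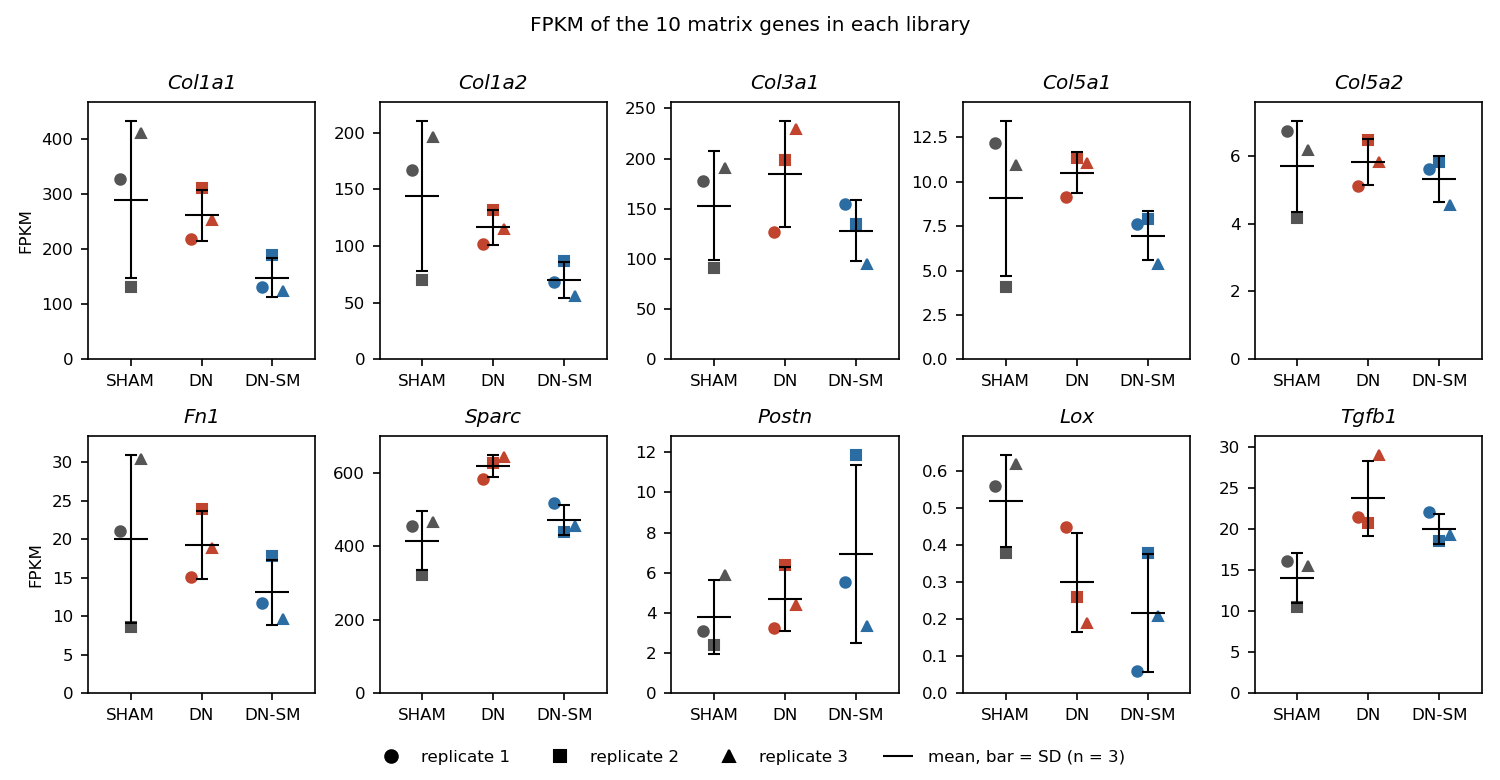
FPKM of each of the 10 genes in each library (points, with the replicate number as the symbol) on linear axes that start at 0, with the group mean as a line and the SD as the error bar (n = 3). SHAM replicate 2 (square) is the lowest library for 7 of the 10 genes, and the DN-SM points of Col1a1, Col1a2, Col5a1 and Sparc lie below all DN points.

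Both type I collagen genes were lower in every DN-SM library than in any DN library, as were 21.3% of all genes tested. Col1a1 (gene ID 29393), the alpha 1 chain, was at 326, 132 and 411 FPKM in SHAM replicates 1 to 3, 218, 311 and 253 in DN, with 131, 189 and 124 in DN-SM. Col1a2 (84352), the alpha 2 chain, was at 167, 69.5 and 196 FPKM in SHAM, 102, 132 and 115 in DN, with 67.8, 86.6 and 55.6 in DN-SM. For both chains each DN-SM library lay below each DN library, and SHAM spread across both groups, with replicate 2 near the DN-SM level. Means for Col1a1 were 289.5 ± 143 FPKM in SHAM, and 261 ± 46.9 in DN against 148 ± 35.7 in DN-SM (SD, n = 3).

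Of the type III and type V collagen genes, only Col5a1 separated DN-SM from DN. Col3a1 (84032), the single chain of type III collagen, was at 177, 90.7 and 191 FPKM in SHAM, 126, 199 and 229 in DN, with 155, 134 and 95.3 in DN-SM, so that all 3 groups overlapped. Col5a1 (85490), the type V alpha 1 chain, was at 12.2, 4.09 and 11.0 FPKM in SHAM, 9.17, 11.3 and 11.1 in DN, with 7.64, 7.89 and 5.37 in DN-SM, with every DN-SM library below every DN library. Col5a2 (85250), its partner chain, varied little between groups, at 6.73, 4.17 and 6.16 FPKM in SHAM, 5.12, 6.47 and 5.82 in DN, with 5.60, 5.82 and 4.55 in DN-SM. The groups overlapped for Col5a2 and SHAM replicate 2 was its lowest value.

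Of the proteins that organise the fibrils, Fn1 (25661), fibronectin, was at 21.1, 8.64 and 30.4 FPKM in SHAM, 15.2, 23.9 and 18.8 in DN, with 11.7, 17.9 and 9.70 in DN-SM. SHAM held both its lowest and its highest library, and the groups overlapped. Sparc (24791), a collagen-binding matricellular protein, was at 455, 323 and 467 FPKM in SHAM, 584, 628 and 642 in DN, with 518, 439.8 and 457 in DN-SM. Its DN libraries were above all others, while SHAM and DN-SM overlapped. Postn (361945), a matricellular protein that binds collagen and fibronectin, was at 3.10, 2.43 and 5.88 FPKM in SHAM, 3.24, 6.40 and 4.41 in DN, with 5.53, 11.9 and 3.36 in DN-SM. DN-SM replicate 2 was the high value for Postn and the groups overlapped.

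Lox (24914), the crosslinking enzyme, was at 0.56, 0.38 and 0.62 FPKM in SHAM, 0.45, 0.26 and 0.19 in DN, with 0.06, 0.38 and 0.21 in DN-SM. It rested on 1 to 10 counts per library, so a difference between groups was not detectable at this depth. With no filter its log2 fold change was -0.84 in DN against SHAM (SE 0.561, edgeR adjusted p = 0.482) -0.36 in DN-SM against DN (adjusted p = 0.84) and -1.20 in DN-SM against SHAM (SE 0.597, adjusted p = 0.514). Tgfb1 (59086), the cytokine, was at 16.1, 10.6 and 15.5 FPKM in SHAM, 21.5, 20.8 and 29.1 in DN, with 22.1, 18.6 and 19.4 in DN-SM. Both nerve-injured groups lay above every SHAM library for Tgfb1, and they overlapped with each other.

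The first comparison, DN against SHAM, addressed nerve injury without stimulation. Tgfb1 rose, from 14.1 ± 3.05 to 23.8 ± 4.60 FPKM (SD, n = 3), a log2 fold change of 0.69 (SE 0.162, edgeR adjusted p = 0.0376). No collagen gene among the members passed the test in either direction. Tgfb1 was 1 of 9 members called, against a background of 4.26% of all 10129 genes tested (2.57% higher in DN). The call for Tgfb1 did not stand without SHAM replicate 2 (log2 fold change 0.55, adjusted p = 0.111) or in a fit of these 2 groups alone (0.68, adjusted p = 0.0864), where 1.57% of all genes were called. Over the 9 fits that each left out 1 library its adjusted p ran from 0.0139, without SHAM replicate 3, to 0.152, without DN replicate 3, and it was called in 1 of the 9.

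Sparc had a log2 fold change of 0.51 in DN against SHAM (SE 0.137, edgeR adjusted p = 0.057), and 618 ± 30.6 FPKM in DN against 415 ± 80.2 in SHAM (SD, n = 3). It passed by DESeq2 (adjusted p = 0.0161), without the low-count filter (0.0495) and without SHAM replicate 3 (0.0145), each with Tgfb1 as the other of 2 members called, where 7.43%, 3.32% and 11.5% of all genes were called. Without SHAM replicate 2 it did not pass (0.38, adjusted p = 0.179). Sparc and Tgfb1 were the 2 of 9 genes whose DN libraries all lay above the SHAM libraries, against 15.9% of all genes tested.

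The collagens of DN against SHAM turned on which SHAM library was kept. With all 9 libraries, log2 fold changes were -0.21 for Col1a1 (SE 0.345) and -0.37 for Col1a2 (SE 0.316), 0.20 for Col3a1 (SE 0.28), 0.16 for Col5a1 (SE 0.307) and -0.03 for Col5a2 (SE 0.16). EdgeR adjusted p-values for these 5 ran from 0.54 to 0.927. Without SHAM replicate 2, Col1a1 was at -0.55 (adjusted p = 0.24) and Col1a2 at -0.69 (0.0912), and both lay below SHAM in every DN library. Col3a1 was then at -0.05 and Col5a1 at -0.17, so that their direction turned, and Col5a2 was at -0.19. Without SHAM replicate 3 instead, Col1a1 was at 0.18 and turned, whereas Col1a2 was at -0.03. Over the 9 fits that each left out 1 library Col1a2 stayed below 0, from -0.69 to -0.03, and was called in none.

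Fn1 and Postn showed no difference beyond the spread in DN against SHAM. Their log2 fold changes were -0.12 (SE 0.429, edgeR adjusted p = 0.902) and 0.21 (SE 0.516, adjusted p = 0.85). Fn1 ran from -0.47 without SHAM replicate 2 to 0.37 without SHAM replicate 3, and Postn was at -0.01 without SHAM replicate 2. Fn1 and Col5a2 also turned to above 0 in limma on log2 FPKM. The median log2 fold change of the 9 genes was 0.16 against -0.01 over all genes tested, and -0.17 without SHAM replicate 2. In that fit 0 of 9 were called, against 1.38% of all genes by edgeR, and 4 of the 9 had an unadjusted p under 0.05, as did 15.6% of all genes. Sparc and Tgfb1 still lay above and Col1a1 and Col1a2 lay below every remaining SHAM library, against backgrounds of 17.5% and 11.6%.

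The second comparison, DN-SM against DN, addressed what stimulation did to the injured muscle. Type I collagen had lower values in DN-SM, with log2 fold changes of -0.72 for Col1a1 (SE 0.347) and -0.64 for Col1a2 (SE 0.317), but neither passed in the fit of all libraries (edgeR adjusted p = 0.31 and 0.328). In that fit 0 of 9 members and 1 gene of 10129 were called, a background of 0.00987%; at an unadjusted p under 0.05 there were 0 members and 1784 genes, and DESeq2 called 0 members and 2.28% of all genes. A fit restricted to DN and DN-SM, which leaves out the wide SHAM group, called Col1a1 (SE 0.177, adjusted p = 0.0385) and Col1a2 (adjusted p = 0.0378), 2 of 9, both lower, where 7.21% of all genes tested were called and 1.25% were lower. Of 6 fits of these groups that each left out 1 library, that without DN-SM replicate 2 called both (Col1a1 -0.93, adjusted p = 0.0202; Col1a2 -0.81, 0.0235) beside 2.71% of all genes, and the other 5 called no member.

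The remaining collagens among the members did not pass. Col5a1 had a log2 fold change of -0.50 (SE 0.31, edgeR adjusted p = 0.421) and an adjusted p of 0.0669 in the fit of the pair, Col3a1 had -0.42 (SE 0.28, adjusted p = 0.449), and Col5a2 had -0.03 (adjusted p = 0.946). With SHAM replicate 2 left out of the fit, which takes no library from the 2 groups compared, adjusted p was 0.0693 for Col1a1, 0.0641 for Col1a2 and 0.0797 for Col5a1. For Col1a1, Col1a2, Col5a1 and Sparc, 4 of 9, every DN-SM library lay below every DN library, where 21.3% of all genes did so and 32.7% separated in either direction.

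Of the genes around the fibril, Sparc was at -0.29 in DN-SM against DN (SE 0.136, edgeR adjusted p = 0.283; 471 ± 41.1 FPKM, SD, n = 3) and Fn1 at -0.46 (SE 0.431, adjusted p = 0.604). Tgfb1 was at -0.15 (SE 0.159, adjusted p = 0.651), with 20.0 ± 1.84 FPKM in DN-SM. Postn went the other way, at 0.66 (SE 0.502, adjusted p = 0.513), and was at 0.04 without DN-SM replicate 2. In all, 8 of the 9 members were below 0 with a median log2 fold change of -0.42, where the median of all genes was -0.01. Of all genes tested 48.7% were above 0. The 9 members share the same libraries and are not independent.

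The third comparison, DN-SM against SHAM, set stimulated injured muscle beside muscle with its nerve. Type I collagen had lower means in DN-SM, at 148 ± 35.7 against 289.5 ± 143 FPKM for Col1a1 and 70.0 ± 15.6 against 144 ± 66.4 for Col1a2 (SD, n = 3), with log2 fold changes of -0.94 (SE 0.348, edgeR adjusted p = 0.294) and -1.01 (SE 0.319, adjusted p = 0.213). With all libraries 0 of 9 members were called, against 0.839% of all genes tested, 3 members and 1293 genes had an unadjusted p under 0.05, and DESeq2 called Col1a2 (-1.03, adjusted p = 0.0207) and 2.63% of all genes. Without SHAM replicate 2 both type I chains fell, Col1a1 by 1.27 (SE 0.215, adjusted p = 0.0169) and Col1a2 by 1.32 (SE 0.186, adjusted p = 0.00809) on the log2 scale. These were 2 of 9, both lower, where 1.33% of all genes were called and 0.767% were lower. Without SHAM replicate 3, and keeping replicate 2, the same values were -0.54 and -0.67, and neither passed.

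The other collagens among the members and Fn1 did not pass in DN-SM against SHAM. With all libraries log2 fold changes were -0.33 for Col5a1 (SE 0.311, edgeR adjusted p = 0.70), -0.58 for Fn1 (SE 0.432, 0.624), -0.22 for Col3a1 (SE 0.28, 0.799) and -0.06 for Col5a2 (SE 0.16, 0.914). Leaving out SHAM replicate 2, Col5a1 was at -0.67 (adjusted p = 0.0603), Fn1 at -0.93 (0.205), Col3a1 at -0.46 (0.365) and Col5a2 at -0.21 (0.504). Without SHAM replicate 3 the same 4 genes were at -0.12, -0.09, 0.02 and 0.04. With replicate 2 left out all 5 collagens and Fn1, 6 of 9, lay below SHAM in every DN-SM library, where 22.3% of all genes did, and Tgfb1 lay above, where 11.7% did. With all 9 libraries Tgfb1 was the 1 member of 9 without overlap, against 7.49% of all genes that were higher and 16.8% in either direction. Its log2 fold change was 0.54 (SE 0.163, adjusted p = 0.165), with 0.40 (adjusted p = 0.223) without SHAM replicate 2. Postn was at 0.88 (SE 0.508, adjusted p = 0.523; 0.66 and 0.643 without SHAM replicate 2), and Sparc at 0.21 (adjusted p = 0.554; 0.09 and 0.762). Median log2 fold changes of the 9 were -0.22 with all libraries and -0.46 without SHAM replicate 2, with 0.02 and 0.03 for all genes.

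**Figure D2:**
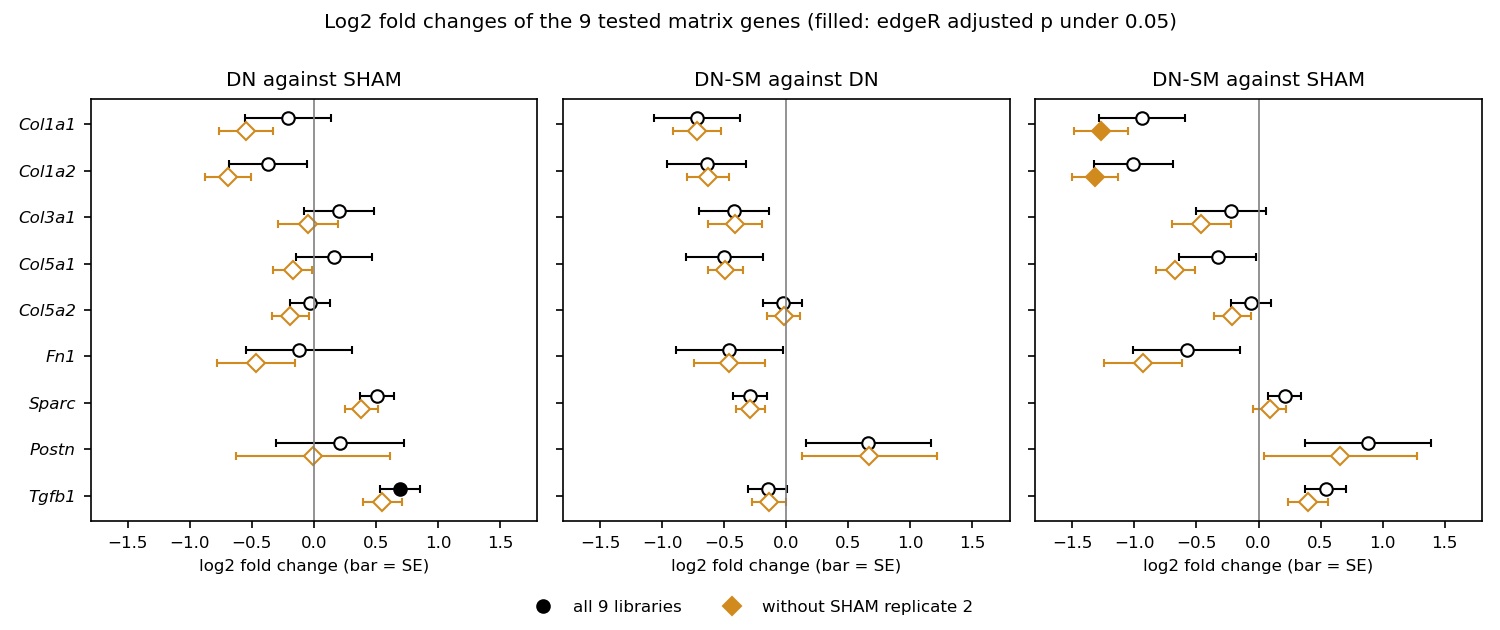
Log2 fold change of the 9 tested genes in the 3 comparisons, with 1 SE as the error bar, for the fit of all 9 libraries (circles) and the fit without SHAM replicate 2 (diamonds); filled points have an edgeR adjusted p under 0.05. Col1a1 and Col1a2 are at -0.72 and -0.64 in DN-SM against DN in the fit of all libraries, open there, and filled in DN-SM against SHAM without SHAM replicate 2; Tgfb1 is filled in DN against SHAM with all libraries.

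Members were also compared with each other by ratios within a library, where library size cancels. For 6 ratios and 3 comparisons, 18 tests in all, exact two-sided permutation tests of 3 against 3 libraries cannot go below p = 0.1, and the lowest Benjamini-Hochberg value was 0.3. Col1a1 to Col1a2 (the type I helix holds 2 alpha 1 chains and 1 alpha 2 chain) was 1.96, 1.89 and 2.09 in SHAM, 2.14, 2.36 and 2.19 in DN, with 1.93, 2.18 and 2.23 in DN-SM. Its DN values lay above those of SHAM (exact permutation p = 0.1, adjusted 0.3), by 0.17 on the log2 scale.

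Col3a1 to Col1a1, the balance of type III and type I, was 0.543, 0.689 and 0.465 in SHAM, 0.579, 0.639 and 0.907 in DN, with 1.18, 0.711 and 0.768 in DN-SM. DN-SM lay above SHAM without overlap (exact permutation p = 0.1, adjusted 0.3; 0.63 on the log2 scale) and overlapped DN. Postn to Col1a1 was 0.0095, 0.0185 and 0.0143 in SHAM, 0.0148, 0.0206 and 0.0174 in DN, with 0.0422, 0.0628 and 0.0271 in DN-SM, above DN and SHAM in every library (exact permutation p = 0.1 for each, adjusted 0.3; 1.25 and 1.61 on the log2 scale). Sparc to Col1a1 was highest in DN-SM replicates 1 and 3, at 3.96 and 3.68, and 2.33 in replicate 2, and it overlapped SHAM and DN (lowest exact permutation p = 0.2); SHAM replicate 2, at 2.45, was the SHAM library within their range, beside 1.39 and 1.14. The ratio of Tgfb1 to Col1a1 was 0.0558 ± 0.0219 in SHAM, and 0.0935 ± 0.0244 in DN against 0.141 ± 0.0376 in DN-SM (SD, n = 3), with DN-SM above SHAM without overlap. SHAM means without replicate 2 were 2.02 for Col1a1 to Col1a2, 0.504 for Col3a1 to Col1a1, 0.0119 for Postn to Col1a1, 1.27 for Sparc to Col1a1 and 0.0436 for Tgfb1 to Col1a1. Of the 18 tests, 6 reached the smallest p that this design allows.

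**Figure D3:**
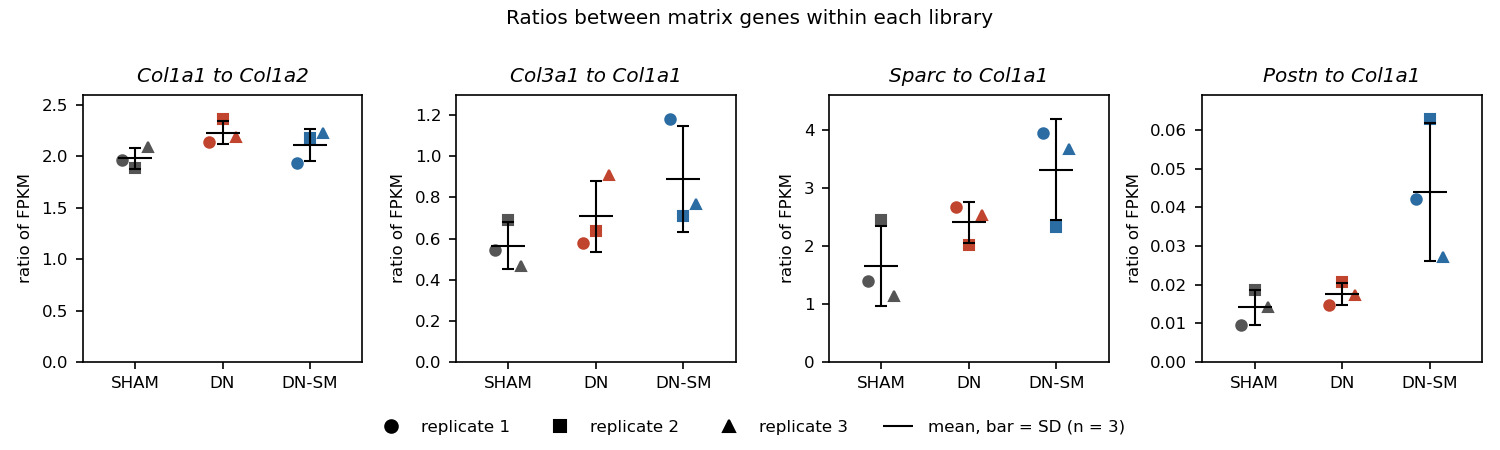
FPKM ratios of 4 pairs of members in each library (points), with mean and SD (n = 3), on axes that start at 0. Postn to Col1a1 is 0.0271 or more in each DN-SM library and at most 0.0206 elsewhere.

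Across the 9 libraries the members did not move as 1 block. Likeness was measured as the mean absolute difference between 2 genes' log2 CPM (counts scaled to library size) profiles, each centred on its own mean. Of 36 pairs of tested members the most alike were Col1a1 and Col1a2 (0.0862), Col1a1 and Fn1 (0.139), Sparc and Tgfb1 (0.164) and Col3a1 and Col5a1 (0.165), and the least alike were Col1a2 and Postn (0.66). Libraries of 1 group share their group and depth, so these values describe the 9 libraries and carry no test. Beyond the members, and among 5394 genes with a mean of at least 5 FPKM, the genes closest to Col1a1 were Ssc5d (0.143), Fndc1 (0.15), Aebp1 (0.205), Pla2g2a (0.218) and Serpinf1 (0.218), against a median of 0.495. The genes closest to Tgfb1 were Rras (0.0704), Itgb1bp2 (0.0828), Slc44a1 (0.0836), Tubb5 (0.0841) and Hk1 (0.0887), against a median of 0.323.

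**Figure D4:**
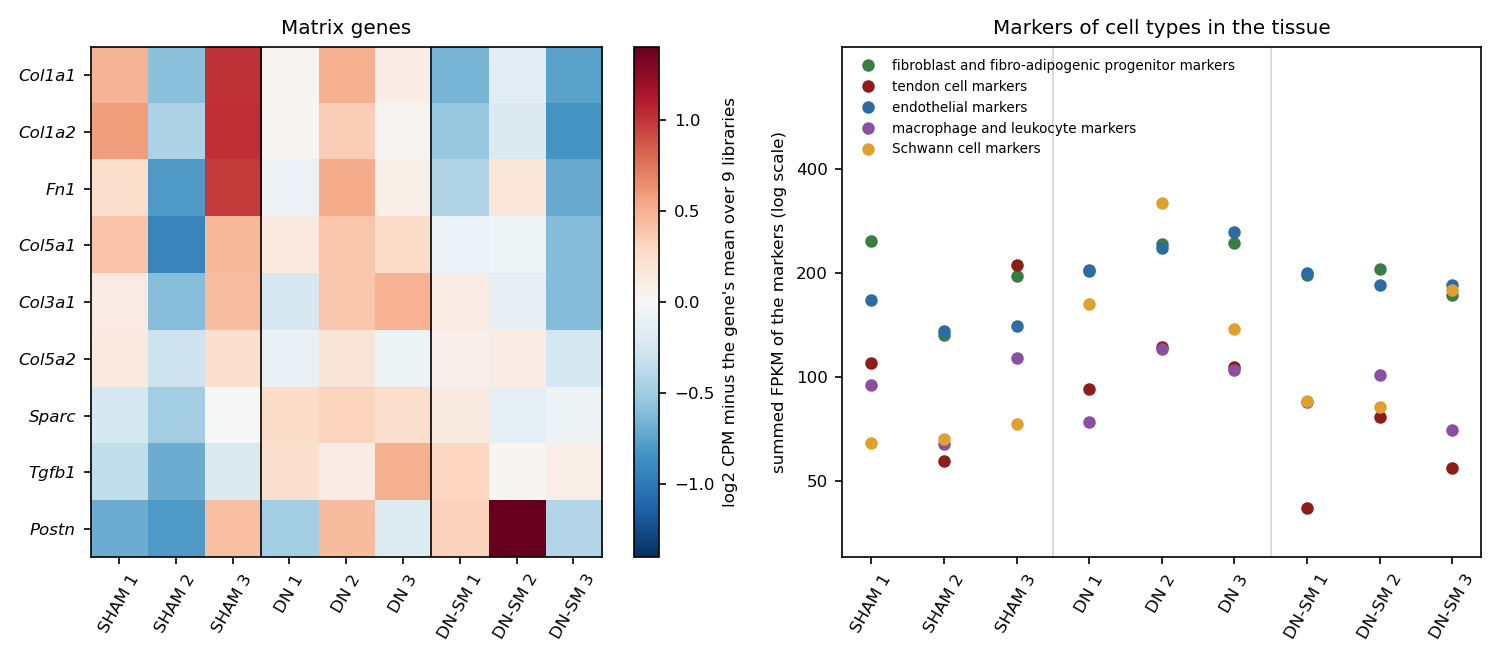
Left, log2 CPM of the 9 tested genes in each library minus the gene's mean over the 9 libraries; right, summed FPKM of marker lists for 5 cell types of the tissue in each library (log axis). Col1a1, Col1a2 and Fn1 are highest in SHAM replicate 3, as is the sum of the tendon markers at 210 FPKM, and Postn is highest in DN-SM replicate 2.

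The wider matrix pathway was read from 9 lists of 138 genes, of which 125 were measured. Other fibrillar collagens, chains of types II, V and XI, had 4 tested members and none called in the fit of all libraries, with medians of -0.35 in DN against SHAM and -0.77 in DN-SM against DN. Col11a2, a minor fibril chain of cartilage and tendon, was at -1.06 in DN-SM against DN (edgeR adjusted p = 0.257, and 0.0329 in the fit of the pair) and Col5a3, a further type V chain, at -0.58 (0.217). Without SHAM replicate 2 both fell in DN-SM against SHAM (-1.96, edgeR adjusted p = 0.0325, and -0.99, adjusted p = 0.0389). These were 2 of the 4, where 0.767% of all genes were called lower. Network and fibril-associated collagens had 7 tested members, of which 2 rose in DN against SHAM: Col4a1, the basement membrane chain, from 48.3 ± 12.1 to 106 ± 21.1 FPKM (SD, n = 3), a log2 fold change of 1.07 (adjusted p = 0.00823), and Col15a1, a basement membrane collagen (0.69, adjusted p = 0.0297). These were 2 of 7 called, where 2.57% of all genes were called higher. All 7 had log2 fold changes below 0 in DN-SM against DN, median -0.43, and none was called in the fit of all libraries. In the fit restricted to DN and DN-SM 3 of the 7 were called lower, where 1.25% of all genes were. They were Col14a1, Col18a1 and Col6a2 (edgeR adjusted p = 0.0238, 0.0286 and 0.0438), read after their values were seen. Without SHAM replicate 2 Col4a1 kept its call in DN against SHAM (0.90, edgeR adjusted p = 0.0156) and Col15a1 did not (0.0902). In that fit Col14a1 was called lower in DN-SM against DN (adjusted p = 0.0432) and in DN-SM against SHAM (-0.92, 0.0124). Of all genes 0.544% and 0.767% were called lower there.

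Enzymes that fold, trim and crosslink collagen had 21 tested members. P4ha1, the prolyl hydroxylase subunit that stabilises the triple helix, fell in DN against SHAM, from 15.5 ± 4.07 to 9.16 ± 1.16 FPKM (SD, n = 3), a log2 fold change of -0.83 (edgeR adjusted p = 0.0232; 0.065 without SHAM replicate 2 and 0.0586 in the fit of the pair), and it was the 1 call of the list. This was 1 of 21, where 4.26% of all genes tested were called in that comparison. In DN-SM against DN 19 of the 21 were below 0, with a median of -0.33 and 0 called in the fit of all libraries. In the fit restricted to DN and DN-SM, Loxl1, a lysyl oxidase relative of elastic fibres, fell (-0.81, adjusted p = 0.0103, against 0.233 with all libraries), from 14.7 ± 3.53 to 7.76 ± 0.813 FPKM (SD, n = 3), and P4ha1 rose (0.46, adjusted p = 0.0436, against 0.213), both read after their values were seen. Loxl1 and P4ha1 were the 2 of the 21 called in that restricted fit, where 7.21% of all genes were called. Small leucine-rich proteoglycans, which coat fibrils, had 7 tested members and none called, with a median of -0.18 in DN against SHAM and -0.13 in DN-SM against DN. Fmod, a proteoglycan of tendon, was at -0.84 in DN-SM against DN (adjusted p = 0.387) and Ogn, a proteoglycan of the same family, at 0.51 (0.304).

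Elastic fibre and matricellular genes had 18 tested members. In DN-SM against DN 17 of them were below 0, with a median of -0.63 where all genes had -0.01, and 0 were called. Comp, a cartilage and tendon protein that binds collagen, fell in DN-SM against SHAM, from 1.69 ± 0.916 to 0.293 ± 0.0851 FPKM (SD, n = 3), a log2 fold change of -2.49 (edgeR adjusted p = 0.0414; 0.00929 without SHAM replicate 2 and 0.0914 in the fit of the pair), at a low level. In the fit restricted to DN and DN-SM 6 of the 18 fell, where 1.25% of all genes were called lower. The 6 were Comp, Eln, Emilin1, Fbln1, Mfap4 and Thbs4, a set read after its values were seen.

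Genes that carry the signal of TGF-beta had 21 tested members. In the fit of all libraries 0 were called in DN against SHAM and in DN-SM against DN, with medians of 0.06 and -0.03. In the fit restricted to DN and DN-SM 3 of the 21 were called, 1 higher and 2 lower, where 7.21% of all genes were called. Itgb5, an integrin subunit that takes part in releasing the latent cytokine, fell in DN-SM against SHAM (log2 fold change -0.52, edgeR adjusted p = 0.0348; 17.7 ± 1.27 to 12.1 ± 0.140 FPKM, SD, n = 3). Its adjusted p was 0.0389 without SHAM replicate 2 and 0.0854 in the fit of the pair. Target genes of TGF-beta had 9 tested members and 0 called in the fit of all libraries. Their median was 0.19 in DN against SHAM (-0.02 without SHAM replicate 2) and -0.50 in DN-SM against DN. Ltbp2, a matrix protein of the latent TGF-beta binding family, was at -1.38 in DN-SM against DN (edgeR adjusted p = 0.193). Tagln, an actin-binding protein of contractile cells, was at -0.55 (0.221). In the fit restricted to DN and DN-SM both were called lower, 2 of the 9, where 1.25% of all genes were.

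Matrix-degrading enzymes and their inhibitors had 19 tested members, of which Timp3, a metalloproteinase inhibitor held in the matrix, rose in DN against SHAM (13.5 ± 2.83 to 24.1 ± 6.51 FPKM, SD, n = 3; log2 fold change 0.78, edgeR adjusted p = 0.0499). Receptors of collagen and fibronectin had 10 tested members, of which 3 rose in DN against SHAM: Itga5, the fibronectin receptor subunit (0.85, adjusted p = 0.00434), Ddr1, a collagen-binding kinase (0.60, adjusted p = 0.0331), and Cd44, a hyaluronan receptor (0.73, adjusted p = 0.0413). The other 7 receptors were below 0 and the list median was -0.17, where 2.57% of all genes were called higher. Without SHAM replicate 2 Itga5 kept its call (0.77, adjusted p = 0.0127), and Timp3, Ddr1 and Cd44 did not (0.0912, 0.0947 and 0.123), nor did these 3 pass in the fit of the pair. In DN-SM against DN 0 of the 19 and 0 of the 10 were called in the fit of all libraries. Mmp2, a gelatinase that cleaves denatured collagen, had a mean of 38.1 ± 2.33 FPKM across the DN libraries against 25.0 ± 1.68 with stimulation (SD, n = 3), and it fell in the fit restricted to these groups (-0.51, edgeR adjusted p = 0.00964, against 0.227 with all libraries), again read after its values were seen. Mmp2 was the 1 of the 19 called in that restricted fit, where 7.21% of all genes were called. The lists with no call in DN-SM against DN in the fit of all libraries are to be read beside the 1 call in 10129 genes of that fit.

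Cell types that could carry these genes were read from marker lists, and their part in the results was not tested. Tendon markers, 7 of 8 measured, summed to 110, 57.1 and 210 FPKM in SHAM replicates 1 to 3, 91.9, 122 and 107 in DN, with 41.7, 76.4 and 54.3 in DN-SM. SHAM replicate 2 was the lowest of SHAM and SHAM replicate 3 the highest, as for Col1a1, and DN-SM was below DN in every library. All 7 were below 0 in each comparison (median log2 fold change -0.66 in DN against SHAM, -0.82 in DN-SM against DN, -1.37 in DN-SM against SHAM), and Chad, a cartilage and tendon matrix protein, fell in DN-SM against SHAM (-2.83, edgeR adjusted p = 0.0349; 0.00948 without SHAM replicate 2 and 0.0821 in the fit of the pair) along with Comp. In the fit restricted to DN and DN-SM 4 of the 7 were called, all lower, where 1.25% of all genes were called lower. Comp and Thbs4 were among them and were also counted in the matricellular list. No tendon marker was at 0 in any library.

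Fibroblast and progenitor markers, 11 of 12 measured, summed to 132 to 247 FPKM in SHAM and 202 to 243 in DN, with 173 to 205 in DN-SM. In DN against SHAM, where 2.57% of all genes were called higher, 2 of the 11 rose, Cd34 (log2 fold change 0.72, edgeR adjusted p = 0.0285) and Thy1 (0.94, adjusted p = 0.0499). Neither was called without SHAM replicate 2 (adjusted p = 0.0835 and 0.143) or in the fit of these groups alone. The median of the 11 was 0.02, with 4 below 0, and -0.15 without SHAM replicate 2, with 7 below 0. In DN-SM against DN 0 of the 11 were called (median -0.12). Endothelial markers, 10 of 10 measured, summed to 136 to 167 FPKM in SHAM and 203 to 262 in DN, with 184 to 199 in DN-SM. In DN against SHAM 8 of the 10 were above 0 and 2 below, and 5 of the 10 rose, against the same 2.57% of all genes. The 5 were Cdh5, Egfl7, Esam, Pecam1 and Tie1, and without SHAM replicate 2 they were 2, Cdh5 and Pecam1. Cdh5 was also higher in DN-SM against SHAM (0.59, edgeR adjusted p = 0.0448, with 0.0396 without SHAM replicate 2 and 0.0688 in the fit of the pair). In that comparison 6 of the 10 endothelial markers were above 0 and 4 below. Without SHAM replicate 2 Kdr was called there in the other direction, lower, as were 0.767% of all genes. Schwann cell markers, 10 of 10 measured, summed to 64.3 to 73.0 FPKM in SHAM and 137 to 318 in DN, with 81.7 to 178 in DN-SM, and 2 of 10 were called higher in DN against SHAM, Ngfr (1.83, adjusted p = 0.0136; 0.0376 without SHAM replicate 2) and Mbp (1.95, adjusted p = 0.0455; 0.175). Macrophage and leukocyte markers, 12 of 12, summed to 64.0 to 113 FPKM in SHAM and 73.8 to 120 in DN, with 70.0 to 101 in DN-SM, and none was called in the fit of all libraries. No marker of these 4 lists was at 0 in any library. Of the adipocyte markers, 6 tested, Cidea rose in DN against SHAM (2.05, adjusted p = 0.0361; 0.121 without SHAM replicate 2), and of the 6 myofibroblast and smooth muscle markers none was called in the fit of all libraries.

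The collagen and fibronectin transcripts are long, from 4474 bases for Col1a2 to 8331 for Fn1. Over 1554 genes with transcripts of 4000 to 9000 bases the median log2 fold change was -0.10 in DN against SHAM, 0.06 in DN-SM against DN and 0.01 in DN-SM against SHAM. Over the 483 of them with a mean of at least 5 FPKM the medians were -0.12, -0.02 and -0.07. Col1a1, with 5843 bases, had -0.72 in DN-SM against DN. Whether transcript length had a part in the values of the members was not tested.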

How the data were processed

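The files give, per library, an expected count and an FPKM value for each gene listed. Per the file headers, the expected count is the estimate written by RSEM and was deposited without normalization. The FPKM values were scaled by the authors to transcript length and library size, per the file headers. Per the submitters' processing notes, HISAT2, RSEM and GATK were used with build rn6; versions and settings are not given in the sources used here. A gene with no row in a file was given 0 there. Gene IDs were matched to RefSeq symbols (13649 IDs by gene ID, 7 by transcript, 96 without a symbol).

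After rounding of the expected counts, differences were tested by the quasi-likelihood method of edgeR 4.0.16 (R 4.3.3; robust, two-sided), with TMM factors and filterByExpr (minimum count 10, minimum total 15), in 1 fit of 9 libraries with the group as the only term. P-values were adjusted by Benjamini-Hochberg over all genes tested, with a threshold of 0.05. SE is the log2 fold change divided by the square root of F. The script was tested on simulated data. A gene's groups do not overlap where all FPKM values of 1 lie above those of the other.

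The members, lists and tests were chosen with earlier results of these data known. All 10 members are named in every comparison, Lox from the fit with no filter. Of each pathway list the called members in the fit of all libraries are named, or else the 2 with the smallest p in DN-SM against DN; other names were chosen after their values were seen. Named as most alike are the 5 genes closest to Col1a1 and to Tgfb1. Alternatives were RLE factors, no filter, DESeq2 1.42.0, a fit restricted to each pair of groups, a block for the replicate number, limma 3.58.1 with trend on log2(FPKM + 1) or log2(FPKM + 0.1) either unfiltered or keeping genes with FPKM of at least 1 in 3 libraries, scaling with the 20 most abundant genes removed, and omission of each library. Omission of libraries from the fit restricted to DN and DN-SM was added after seeing the data. Depth limits low genes such as Lox, and list genes without a row in the files, Col6a1 and Col6a3 among them, were not analysed here. The values of 1 gene of the TGF-beta lists are not reported here.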

Additional observations from a re-analysis of the deposited data

How the results depend on the processing

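The count of called members in DN against SHAM was 1 with all libraries, 2 with no filter and by DESeq2, and 0 in the fit of the 2 groups and in the 3 limma fits; it ran from 0 to 2 with 1 library left out. In DN-SM against DN it was 0, and 2 in the fit of the 2 groups and in that fit without DN-SM replicate 2, with 0 to 2 over its 6 fits with a library left out. In DN-SM against SHAM it was 0, and 1 by DESeq2 and 0 to 2 with a library left out, where the 2 came without SHAM replicate 2. Over all genes, 432 were called in DN against SHAM, 753 by DESeq2, 156 in the fit of the 2 groups, and 275, 243 and 112 by limma with a pseudocount of 1, of 0.1 and of 1 without a filter. With a library left out the count ran from 58 (DN replicate 3) to 1183 (SHAM replicate 3). In DN-SM against DN it was 1, with 231 by DESeq2, 716 in the fit of the pair, 0 by limma with a pseudocount of 0.1, 0 to 416 with a library left out, and in the fit of the pair 492, 411 and 489 without DN replicates 1 to 3 and 274 to 537 without 1 DN-SM library. In DN-SM against SHAM it was 85, with 266 by DESeq2, 28 in the fit of the pair, 42, 43 and 12 by limma, and 15 to 137 with a library left out. The cause of these differences was not tested.

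No value whose direction turned had passed the test. In DN against SHAM, Col5a2 was at -0.03 and at 0.04, 0.05 and 0.04 in the 3 limma fits, and Fn1 at -0.12 and at 0.09, 0.10 and 0.09. With a library left out, Col5a2 ran from -0.19 to 0.06 (0.02 without SHAM replicate 1, 0.01 without DN replicate 1 or 3), Col3a1 from -0.05 to 0.43, Col5a1 from -0.17 to 0.37, Postn from -0.09 to 0.71 (-0.01 without SHAM replicate 2), Col1a1 from -0.55 to 0.18 and Fn1 from -0.47 to 0.37. In DN-SM against DN, Col5a2 ran from -0.08 to 0.08, with 0.07 without DN replicate 2, in the fits of all groups and of the pair. In DN-SM against SHAM, Col3a1 ran from -0.46 to 0.02 and Col5a2 from -0.21 to 0.04. Of 540 values under 24 alternatives, 495 kept their direction and side of the threshold or stayed within the stated range. By limma with a pseudocount of 0.1 the median of all genes in DN-SM against DN was -0.11 in place of -0.01, and that of the members -0.51.

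With the replicate number as a block, the replicate block fit called 317, 1 and 39 genes in the 3 comparisons and changed no member's call. Same-numbered libraries deviated together with correlations of -0.07 to 0.12, and a library's closest match in another group had its own number in 3 of 18 cases. No pairing by number was seen, but 3 libraries per group cannot exclude it. The labels do not say what the numbers mean.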

Other observations

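Among genes of the TGF-beta lists, Ccn2, connective tissue growth factor, was at 40.1, 13.3 and 10.7 FPKM in SHAM, 14.1, 15.8 and 33.8 in DN, with 7.81, 8.03 and 22.3 in DN-SM. In each group 1 library stood above the other two. Tgfb2, a second ligand of the family, had means of 3.35 ± 0.805 FPKM for SHAM, 4.61 ± 0.307 for DN and 5.49 ± 0.368 for DN-SM (SD, n = 3), and its log2 fold change in DN-SM against SHAM was 0.74 (edgeR adjusted p = 0.0793; 0.87 and 0.0401 without SHAM replicate 2). Tgfb3, the remaining ligand, was at 10.5 ± 1.09, 9.59 ± 0.889 and 9.08 ± 1.32 FPKM in the 3 groups and was called in none of the 3 comparisons. These genes were chosen after their values were seen.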
